A study of Mus musculus with 8 samples.

Results

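The apolipoproteins made by liver were followed here as 10 genes, Apoa1, Apoa2, Apoa4, Apoa5, Apob, Apoc1, Apoc2, Apoc3, Apoe and Apoh, in mice with 1 or 2 working copies of Mtap. Members were all probe sets whose platform annotation gives exactly 1 gene symbol, that symbol being among the 10. This gave 16 of the 45037 probe sets tested and 10 of 18193 genes. Apoa1 had 4 probe sets, Apoa4, Apob and Apoh had 2 each and the other 6 genes 1 each, and probe sets were kept apart throughout. Liver RNA came from 4 MTAP+/- and 4 MTAP+/+ mice, all male, of strain C57BL/6 and aged 92 to 101 days, with 1 Affymetrix array per mouse. The labels name no drug, diet or other treatment. The comparison asks which liver transcripts differ when 1 copy of Mtap, the gene of the methionine salvage enzyme methylthioadenosine phosphorylase, is lost. The labels name neither the altered part of Mtap nor any litter, collection time or batch, so the p-values measure the spread between these livers only.

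Apolipoproteins are the protein parts of lipoproteins, the particles that carry triglyceride and cholesterol in blood. Apolipoprotein B is built into very low density lipoprotein as the particle forms in the hepatocyte, while apolipoproteins A-I and A-II are the main proteins of high density lipoprotein (HDL). The C apolipoproteins and apolipoprotein A-V set how fast lipoprotein lipase removes triglyceride, and apolipoprotein E is the ligand by which remnant particles are taken up. Apolipoprotein A-IV is made in intestine and, in rodents, also in liver, where its transcript is known to respond to lipid load and fasting.

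The values are log2 signals made by the authors with robust multi-array average (RMA), so a difference of 1 is a doubling, and differences are given as MTAP+/- minus MTAP+/+. Medians per array ran from 3.91 to 3.97. The 4 Mtap probe sets were lower in every MTAP+/- liver than in any MTAP+/+ liver, at 32.2% to 57.6% of the MTAP+/+ level. The hepatocyte genes Alb, Ttr, Fgb, Fga, Ahsg and Cps1 averaged 13.59 to 13.82 over the MTAP+/- livers and 13.58 to 13.68 over the MTAP+/+ livers, and 0 of these 6 had an unadjusted limma p under 0.05. MTAP+/+ replicate 4 and MTAP+/- replicate 2 each scored close to livers of the other genotype on principal component 1. On principal component 1, which held 28.3% of the variance of all probe sets, MTAP+/+ replicate 4 scored -23.56, beside MTAP+/- replicates 1, 3 and 4 (-24.91 to -23.43) and away from MTAP+/+ replicates 1 to 3 (3.58 to 31.30). MTAP+/- replicate 2 scored 35.57, the highest of the 8 livers. The MTAP+/+ livers were spread out, with replicate 3 at 3.58. On principal component 2 MTAP+/+ replicate 4 (17.72) was inside the range of the other MTAP+/+ livers (11.25 to 29.47). The MTAP+/- livers scored -44.12 to -4.03 there, with replicate 2 the lowest. Without MTAP+/- replicate 2 the counts below were taken again, as they were without MTAP+/+ replicate 4; for the counts at an unadjusted p this was chosen after the data were seen.

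Apoa1, Apoc3, Apoa4 and Apoa5 lie next to each other on chromosome 9. The 250 bases before the RefSeq start (GRCm38.p6, plus strand) are shown for Apoa4, whose signal differed most between genotypes among the members, and for Apoa1 and Apoa5 from the same cluster. Capitals mark matches on either strand to the motifs searched. These were the TATA box with letters TATAAA, an HNF4 motif known from liver genes with letters CAAAGTCCA, the half-site that nuclear receptors bind with letters AGGTCA, and the E-box with letters CACGTG.
Apoa4 (chr9:46240594-46240843): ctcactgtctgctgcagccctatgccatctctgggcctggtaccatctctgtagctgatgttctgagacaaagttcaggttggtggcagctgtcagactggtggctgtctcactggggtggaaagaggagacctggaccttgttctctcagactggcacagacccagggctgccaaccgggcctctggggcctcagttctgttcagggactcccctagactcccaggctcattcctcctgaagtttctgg
Apoa1 (chr9:46228380-46228629): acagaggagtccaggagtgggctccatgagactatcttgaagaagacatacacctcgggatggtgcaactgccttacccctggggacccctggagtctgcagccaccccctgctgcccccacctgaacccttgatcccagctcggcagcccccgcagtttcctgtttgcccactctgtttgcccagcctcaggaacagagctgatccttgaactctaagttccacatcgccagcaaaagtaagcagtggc
Apoa5 (chr9:46268358-46268607): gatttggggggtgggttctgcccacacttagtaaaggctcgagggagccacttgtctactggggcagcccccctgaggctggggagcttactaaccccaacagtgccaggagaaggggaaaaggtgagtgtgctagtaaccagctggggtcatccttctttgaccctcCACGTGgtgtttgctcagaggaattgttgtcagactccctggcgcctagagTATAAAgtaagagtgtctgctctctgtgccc
In these windows the Apoa5 promoter held an E-box from base -82 and a TATA box from base -31 relative to its start, and those of Apoa4 and Apoa1 held 0 of the 4 motifs. Of all 32851 promoters in the table, 12.4% held the TATA box, 0.384% the HNF4 motif, 14.0% the half-site and 6.02% the E-box within the same length. The table had 12 promoters for 8 of the 10 members, and of these 5 held the TATA box, 0 the HNF4 motif, 3 the half-site and 2 the E-box. The 2 with an E-box are overlapping windows from neighbouring starts of Apoa5. Both also count among the 5 with the TATA box, through the same TATA box.

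No apolipoprotein passed the threshold between genotypes, and the 1 gene with a sizeable difference was Apoa4. Of the 16 probe sets 0 passed a limma adjusted p of 0.05 over all probe sets, where 0.0355% of all probe sets did. At an unadjusted limma p under 0.05 there were 2 of 16, both of Apoa4, against 8.41% of all probe sets. Without MTAP+/- replicate 2 the 16 probe sets had 0 past the adjusted threshold and 3 at an unadjusted p under 0.05, those of Apoa4 and Apoa5, against 10.8% of all probe sets. Without MTAP+/+ replicate 4 there were 1 and 2, all of Apoa4. Of all 45037 probe sets, 15 passed the adjusted threshold in that fit and 4509 had an unadjusted p under 0.05. With all livers the difference was positive for 8 probe sets and negative for 8, with a median of 0.0041 against -0.010 over all probe sets. The groups overlapped for all 16 probe sets, while 4.35% of all probe sets had groups that did not overlap.

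**Figure D1:**
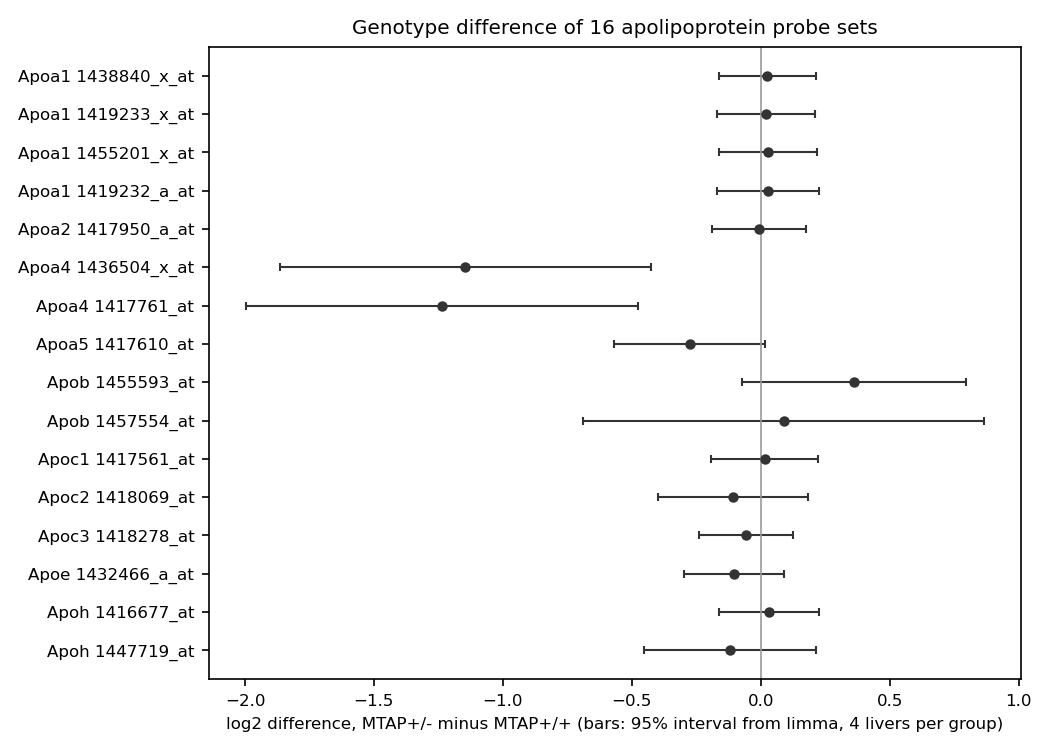
Difference between genotypes for the 16 apolipoprotein probe sets, on the horizontal axis as log2 MTAP+/- minus MTAP+/+, with 95% intervals from limma (4 livers per group). The intervals of 2 probe sets, both of Apoa4, exclude 0, and those of 9 lie within 0.3 log2 units on either side of 0.

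Apoa4 was read by 2 probe sets with the same pattern. The suffix of 1436504_x_at marks a probe set with probes that may bind other transcripts too. At 1436504_x_at the MTAP+/+ livers 1 to 4 had log2 signals of 11.36, 11.31, 11.09 and 9.79, and the MTAP+/- livers 1 to 4 had 10.25, 9.33, 9.63 and 9.77. MTAP+/+ replicates 1, 2 and 3 were above every MTAP+/- liver, whereas MTAP+/+ replicate 4 lay among the MTAP+/- livers, below MTAP+/- replicate 1. At 1417761_at the MTAP+/+ livers had 10.74, 10.60, 10.45 and 8.97 and the MTAP+/- livers 9.44, 8.67, 8.79 and 8.92. The livers fell in the same pattern here, with MTAP+/+ replicate 4 again below MTAP+/- replicate 1. The mean at 1436504_x_at was 9.74 ± 0.38 (SD, n = 4) in MTAP+/- and 10.89 ± 0.74 in MTAP+/+ liver, and at 1417761_at it was 8.95 ± 0.34 and 10.19 ± 0.82. The log2 difference was -1.15 ± 0.33 (SE) at 1436504_x_at and -1.24 ± 0.34 at 1417761_at, which put MTAP+/- liver at 45.2% (95% interval 27.5 to 74.4) and 42.5% (25.0 to 72.0) of MTAP+/+ liver. These differences did not pass over all probe sets (limma adjusted p = 0.375 and 0.364, unadjusted p = 0.0051 and 0.0045). The exact two-sided permutation p was 0.0571 for each (n = 4 per group), where 0.0286 is the smallest possible. In whole liver, fewer cells that make a transcript and less of it per cell cannot be told apart.

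**Figure D2:**
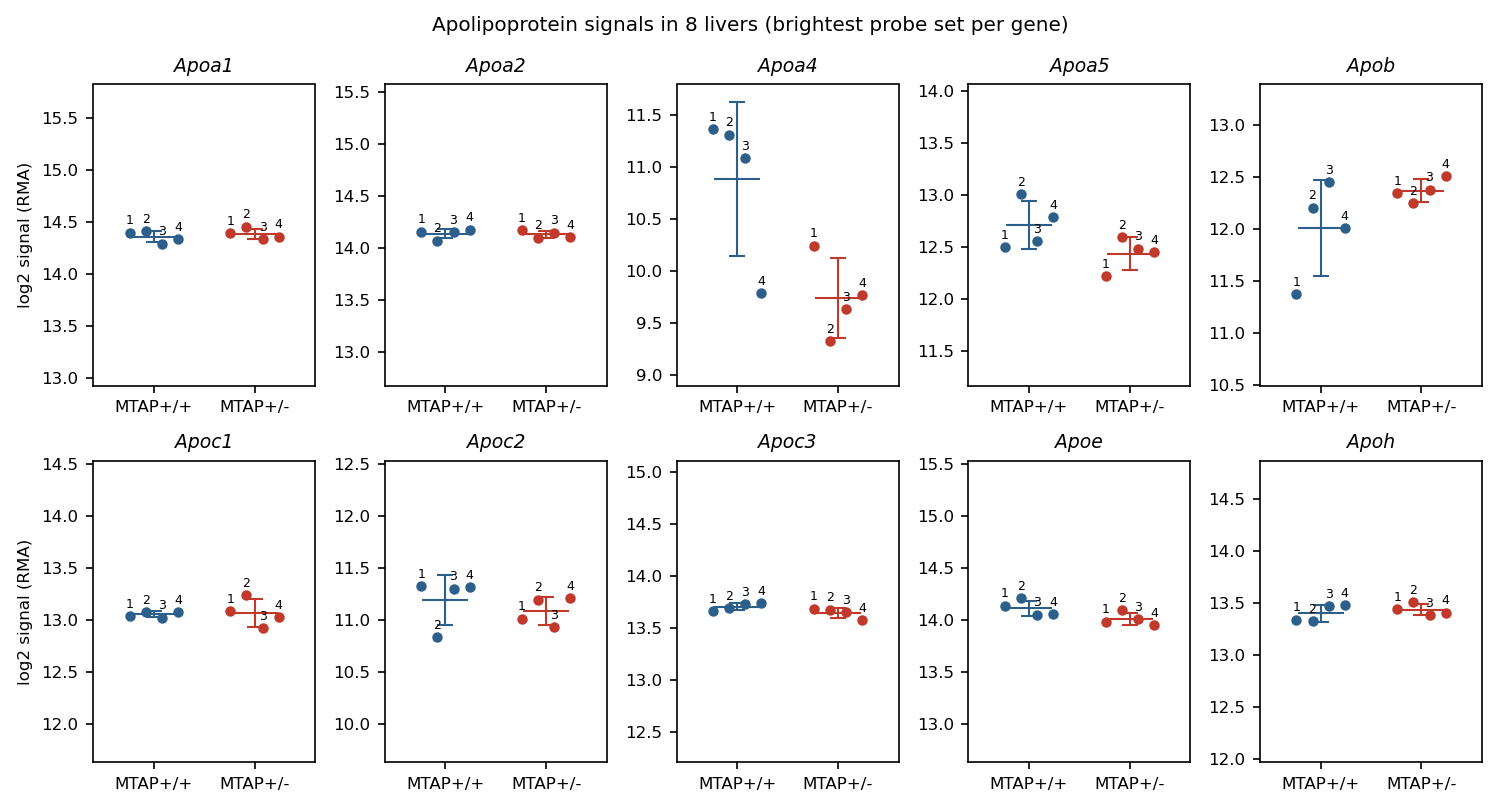
Log2 signal of the brightest probe set of each of the 10 apolipoproteins in every liver, MTAP+/+ in blue and MTAP+/- in red, with the mean and SD of each group (n = 4); numbers are replicates and every panel spans the same number of log2 units. The Apoa4 panel shows MTAP+/+ replicate 4 (9.79) among the MTAP+/- livers (9.33 to 10.25), and the Apoa1, Apoa2 and Apoc3 panels show livers close together.

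The size of the Apoa4 difference depended on 1 liver. Without MTAP+/+ replicate 4 the log2 difference was -1.64 at 1417761_at, which then passed over all probe sets (limma adjusted p = 0.0257), and -1.51 at 1436504_x_at, which did not (adjusted p = 0.0533). Leaving out any other single liver gave -1.40 to -1.05 at 1417761_at (adjusted p from 0.308 to 0.754) and -1.31 to -0.99 at 1436504_x_at (adjusted p from 0.325 to 0.761). Control probe sets at 3' ends exceeded those at 5' ends, a measure that moves with RNA integrity, by 1.04 in MTAP+/+ replicate 4, 0.880 to 0.963 in the other MTAP+/+ livers, 1.08 to 1.12 in MTAP+/- replicates 1, 3 and 4 and 0.713 in MTAP+/- replicate 2; its part in the Apoa4 values was not tested. Apoa4 is also an intestinal transcript. Of 5 measured intestinal markers 0 had an unadjusted p under 0.05, and Vil1, Lct, Alpi and Cdx2 had signals of 2.29 to 4.28 in all livers, close to or under the array medians. Fabp2, the fifth marker, was at 8.24 to 9.99 in MTAP+/- and 8.87 to 9.52 in MTAP+/+ livers.

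**Figure D3:**
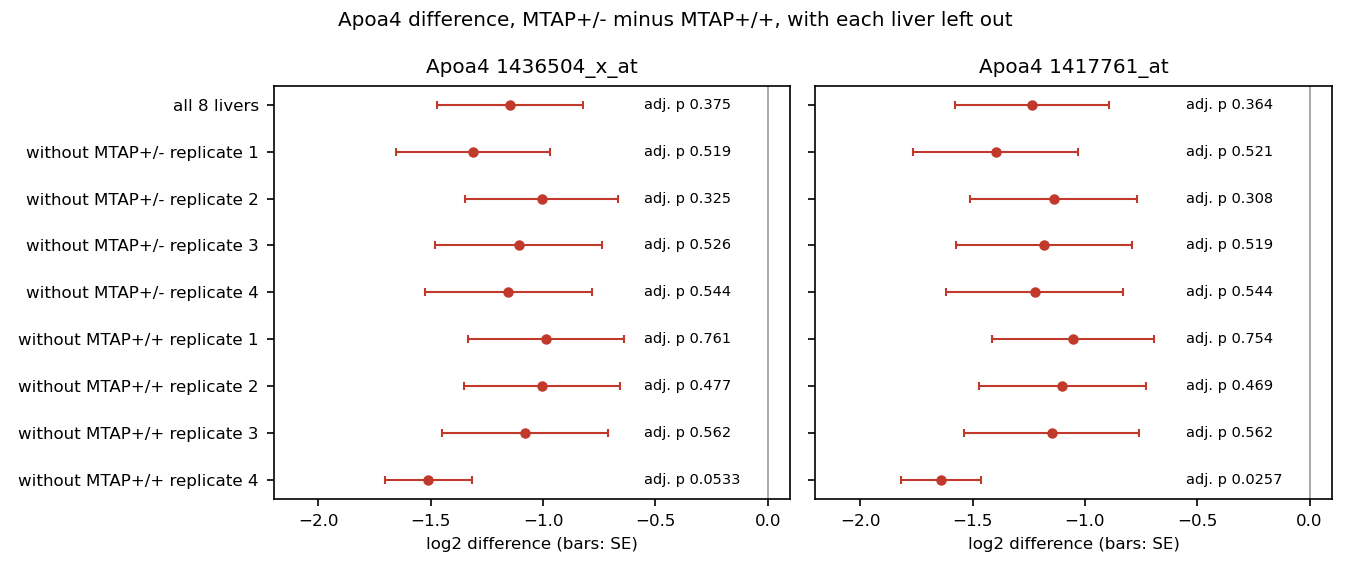
Log2 difference of the 2 Apoa4 probe sets, MTAP+/- minus MTAP+/+, with all 8 livers and with each liver left out in turn; bars are SE and the numbers are limma adjusted p over all probe sets. The difference is most negative without MTAP+/+ replicate 4, at -1.51 and -1.64.

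The neighbours of Apoa4 in the cluster showed smaller differences. Apoa5, whose product promotes triglyceride removal by lipoprotein lipase, had signals of 12.50, 13.01, 12.56 and 12.79 in MTAP+/+ livers 1 to 4 and 12.22, 12.60, 12.49 and 12.45 in MTAP+/- livers 1 to 4. Its MTAP+/- livers were on the low side, with replicate 2 inside the MTAP+/+ range. The log2 difference was -0.27 ± 0.13 (SE), or 82.7% of MTAP+/+ (67.5 to 101%), with a limma adjusted p of 0.622 and an exact permutation p of 0.114 (n = 4 per group). It was -0.18 without MTAP+/+ replicate 2 and -0.33 without MTAP+/- replicate 2 (adjusted p = 0.442). Apoc3, an inhibitor of lipoprotein lipase, had 13.67, 13.69, 13.73 and 13.74 in MTAP+/+ and 13.69, 13.68, 13.65 and 13.58 in MTAP+/- livers. Its groups overlapped and its difference was -0.06 ± 0.08 (adjusted p = 0.896). Whether Apoa4 differed between genotypes more than its neighbours did was not tested.

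Apoa1, the main HDL protein, showed no detectable difference between genotypes at its 4 probe sets. At 1438840_x_at the MTAP+/+ livers had 14.40, 14.42, 14.29 and 14.34 and the MTAP+/- livers 14.40, 14.46, 14.34 and 14.36. The 4 probe sets differed by 0.02 to 0.03 log2 units, with limma adjusted p from 0.959 to 0.972, and the interval at 1438840_x_at reached from 89.4% to 116% of MTAP+/+. Apoa2, another HDL protein, had 14.16, 14.07, 14.15 and 14.17 in MTAP+/+ and 14.17, 14.10, 14.15 and 14.10 in MTAP+/- livers. Its difference was -0.0069 ± 0.082 (SE), with an interval of 87.7% to 113% of MTAP+/+.

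These 5 probe sets lay 0.35 to 0.59 log2 units below the highest signal of any probe set on the 8 arrays (14.72). The intervals therefore bound the difference on the array scale, close to its upper end, and saturation was not tested.

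Apob, the structural protein of very low density lipoprotein, gave unlike readings at its 2 probe sets. At 1455593_at the MTAP+/+ livers had 11.37, 12.21, 12.45 and 12.01 and the MTAP+/- livers 12.34, 12.25, 12.38 and 12.51. MTAP+/+ replicate 1 was the lowest of the 8 livers and the MTAP+/- livers lay close together, within an SD of 0.11 against 0.46 in MTAP+/+. The difference was 0.36 ± 0.20 (SE; limma adjusted p = 0.670), and it was 0.15 without MTAP+/+ replicate 1. At 1457554_at the livers ranged from 7.87 to 9.72 in MTAP+/+ and from 8.32 to 9.27 in MTAP+/-, and the difference was 0.09 ± 0.35 (adjusted p = 0.968). Its sign turned when single livers were left out, to -0.20 without MTAP+/+ replicate 4, -0.05 without MTAP+/+ replicate 1 and -0.06 without MTAP+/- replicate 2. The 2 probe sets had a Pearson r of 0.51 over the 8 livers, against 0.996 for the 2 of Apoa4 and at least 0.948 for any 2 of Apoa1, all computed over the same 8 arrays and given as a description.

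The cluster on chromosome 7 holds Apoe, Apoc1 and Apoc2. Apoe, the ligand for remnant uptake, had 14.14, 14.21, 14.05 and 14.05 in MTAP+/+ and 13.98, 14.09, 14.01 and 13.95 in MTAP+/- livers. MTAP+/- replicates 1, 3 and 4 were below every MTAP+/+ liver and replicate 2 was above 2 of them. The difference was -0.10 ± 0.09 (SE), or 93.1% of MTAP+/+ (81.4 to 106%), with a limma adjusted p of 0.803 and an exact permutation p of 0.0857 (n = 4 per group). Macrophages also make Apoe. Of 7 macrophage and Kupffer cell markers 0 passed over all probe sets. At an unadjusted p under 0.05 there were 3, against 9.36% of all genes (each gene by its brightest probe set), with Adgre1 at 0.78, Cd68 at 0.54 and Timd4 at 0.50. Of the other 4, Marco was at 0.72, Vsig4 at 0.05, Csf1r at -0.02 and the Kupffer cell lectin Clec4f at -0.27. MTAP+/- replicate 2 was the highest of the 8 livers for Adgre1 (8.93), Cd68 (7.41), Timd4 (5.98) and Marco (9.97) and the lowest for Clec4f (7.06) and Vsig4 (8.20). Without it 2 of the 7, Adgre1 and Vsig4, had an unadjusted p under 0.05, against 12.5% of all genes, and Apoe was at -0.13. The list mean was 8.23 in MTAP+/- replicate 2, 7.40 to 7.996 in the other MTAP+/- livers and 7.27 to 7.59 in MTAP+/+ livers, and its part in the Apoe values was not tested.

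Apoc1 and Apoc2 showed no difference beyond the spread. Apoc1, which restrains lipoprotein uptake, had 13.04, 13.08, 13.03 and 13.08 in MTAP+/+ and 13.09, 13.24, 12.92 and 13.03 in MTAP+/- livers. MTAP+/- replicates 2 and 3 were its highest and lowest livers, and the difference was 0.02 ± 0.09 (SE; limma adjusted p = 0.981). Apoc2, the cofactor of lipoprotein lipase, had 11.33, 10.83, 11.30 and 11.32 in MTAP+/+ and 11.01, 11.20, 10.93 and 11.21 in MTAP+/- livers. MTAP+/+ replicate 2 was its lowest liver and the other 3 MTAP+/+ livers were above every MTAP+/- liver. The difference was -0.11 ± 0.13 (SE; adjusted p = 0.877), and -0.23 without MTAP+/+ replicate 2 (adjusted p = 0.605).

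Apoh, a plasma protein that binds phospholipid, showed no difference beyond the spread. At 1416677_at the MTAP+/+ livers had 13.34, 13.32, 13.47 and 13.47 and the MTAP+/- livers 13.44, 13.50, 13.38 and 13.41, a difference of 0.03 ± 0.09 (SE; limma adjusted p = 0.954). The other probe set, 1447719_at, had signals between 5.32 and 6.02 and a difference of -0.12 ± 0.15 (adjusted p = 0.882). Lowest of all at that probe set was MTAP+/- replicate 2.

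Members differed widely in how much they varied among livers of 1 genotype. The within-genotype SD was 0.04 for Apoa2 and Apoc3 and 0.05 to 0.08 for the Apoa1 probe sets, all close to the upper end of the array scale, where saturation can narrow a spread and was not tested. Of the 200 probe sets nearest to them in mean signal, 171 to 197 were dimmer, so their low SD has no like-for-like comparison. The SD was 0.59 and 0.63 for the Apoa4 probe sets, where the 200 probe sets nearest in mean signal had a median SD of 0.20. For the Apob probe sets it was 0.34 and 0.64, against 0.15 and 0.22 for their 200 nearest. From the lowest to the highest liver of both genotypes together, the Apoa4 signal at 1417761_at spanned 4.21-fold and the Apoa2 signal 1.08-fold. These spans include any difference between genotypes.

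**Figure D4:**
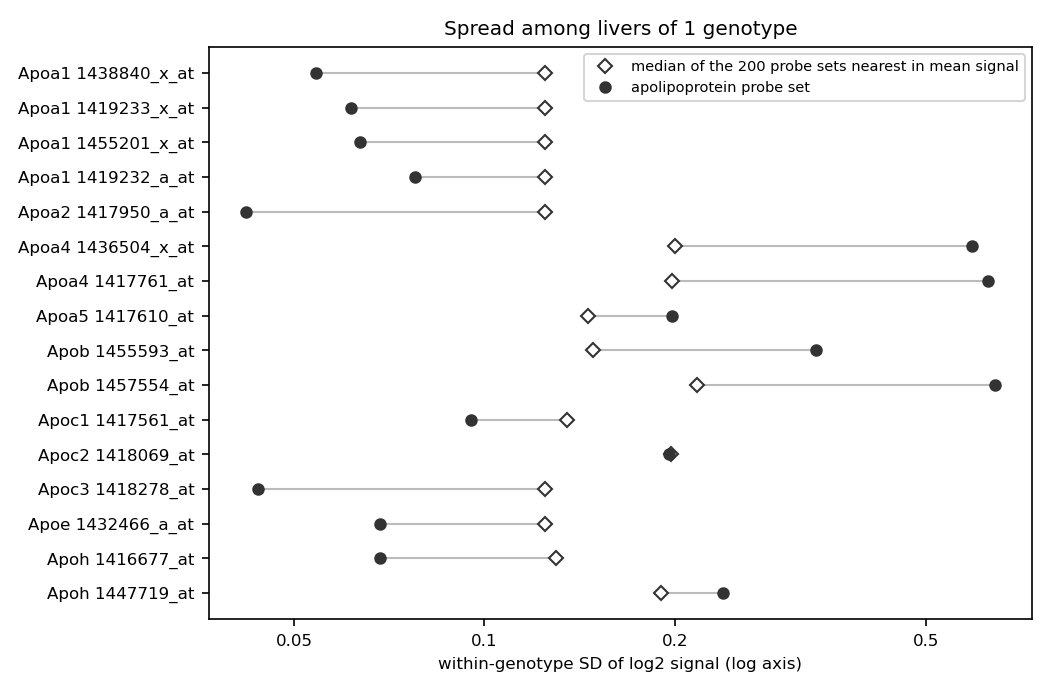
SD of log2 signal among livers of 1 genotype (pooled over both genotypes, log axis) for each apolipoprotein probe set (filled circles) and the median of the 200 probe sets nearest in mean signal (open diamonds). Apoa2 and Apoc3 lie lowest at 0.04, near the upper end of the signal scale where most of the 200 are dimmer, and Apoa4 and 1 Apob probe set lie highest at 0.59 to 0.64.

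The members did not vary as a block. Over the 45 pairs of member genes, each gene by its brightest probe set, Pearson r over the 8 livers had a median of -0.05, with 4 pairs above 0.5 and 4 below -0.5. Apoe and Apoa5 reached 0.74, Apoa1 and Apoc1 0.73, and Apoa4 and Apoe 0.60. After each genotype mean was subtracted, the r of Apoa1 and Apoe was 0.85 and that of Apoa4 and Apoe 0.23. These are descriptions over 8 arrays that share normalisation.

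Among 7004 other genes with a mean log2 signal of at least 6, Mettl1 (r = 0.95) and Mkks (r = 0.94) followed Apoa4 most closely over the 8 livers, and 17 genes had an r above 0.9. Mettl1, a tRNA methyltransferase, had a log2 difference of -0.36 (limma adjusted p = 0.403). Entpd5 (0.985) was closest to Apoa2, Pmpcb (0.985) to Apoe, Dlat (0.96) to Apoc1, Arhgap17 (0.95) to Apoa1 and Itgb1 (0.95) to Apob. For Apoe 169 genes had an r above 0.9, more than for any other member. MTAP+/+ replicates 1 and 2 and MTAP+/- replicate 2 had the highest Apoe signals and also the highest scores on principal component 1. Whether these 169 genes follow that component was not tested. From the lowest to the highest liver the Apoa2 signal spanned only 1.08-fold and the Apoe signal 1.19-fold. Both lay close to the upper end of the array scale. The closest of 7004 genes over 8 livers is high by selection, and no p is given.

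Related genes were read from 9 hand-written lists with 87 measured genes. Of these, 6 lists (52 genes) hold lipoprotein genes and genes with apolipoprotein names, 1 holds transcription factors (20 genes) and 2 hold the chromosomal neighbours of the clusters (15 further genes), which need have no part in lipid transport. Of the 87 genes 0 passed a limma adjusted p of 0.05 over all probe sets, where 0.0385% of all genes did. At an unadjusted p under 0.05 there were 13, 9 higher and 4 lower in MTAP+/- liver, which is 14.9% of the 87 against 9.36% of all genes. In the 6 lipoprotein lists alone there were 6 of 52, or 11.5%. Without MTAP+/- replicate 2 these were 17 of 87 and 9 of 52, against 12.5% of all genes, and without MTAP+/+ replicate 4 they were 15 of 87 and 7 of 52, against 11.7%. The median log2 difference of the 87 was 0.03, against -0.02 over all genes. The groups did not overlap for 7 of the 87, and for 4.64% of all genes.

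**Figure D5:**
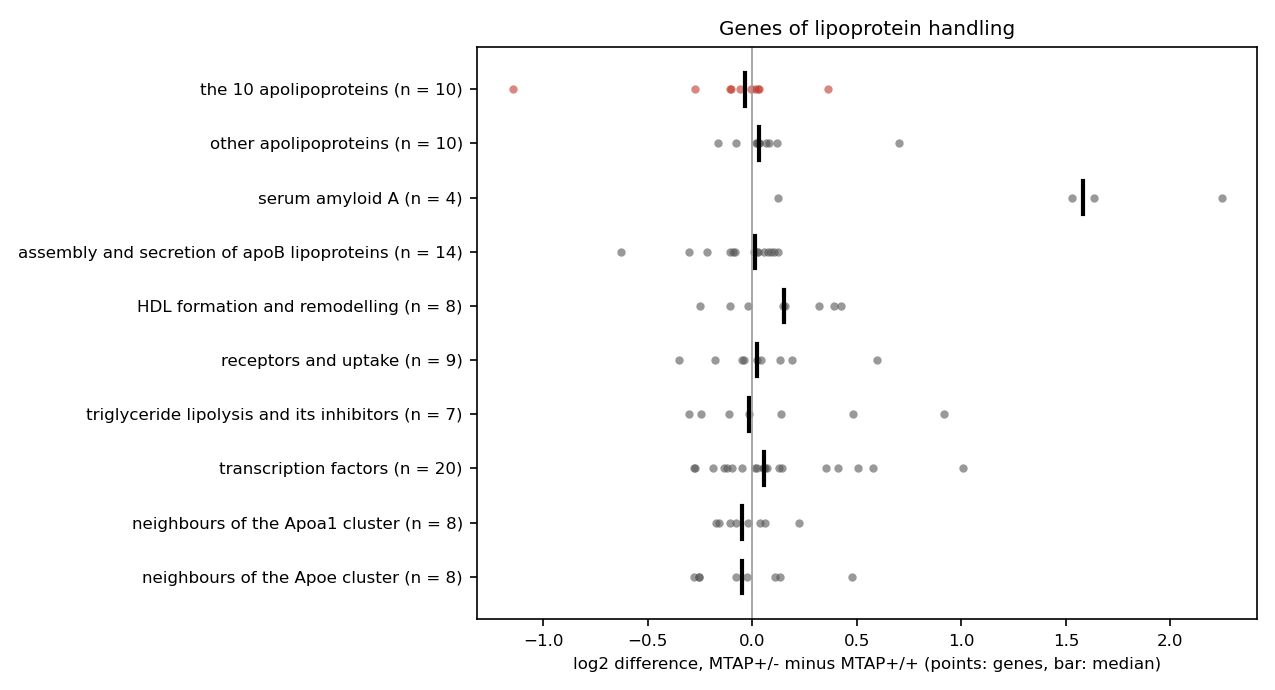
Log2 difference, MTAP+/- minus MTAP+/+, of each measured gene in the 10 apolipoproteins and 9 related lists, each gene by its brightest probe set; black bars are list medians. Apoa4 lies apart at -1.15, and the 4 serum amyloid A genes range from 0.12 to 2.24.

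Serum amyloid A proteins travel on HDL when inflammation is present, and their 4 genes had positive mean differences at the brightest probe set of each, with 0 past the threshold. Saa3 had 7.47, 7.09, 6.82 and 6.81 in MTAP+/+ and 7.49, 8.37, 8.29 and 10.57 in MTAP+/- livers, groups that did not overlap by a narrow margin (1.64 ± 0.52, SE; limma adjusted p = 0.421). Saa1 (1.53 ± 0.77) and Saa2 (2.24 ± 1.12) were high in MTAP+/- replicates 3 and 4 and in MTAP+/+ replicate 1, so their groups overlapped. Saa4, the constitutive form, was at 0.12 ± 0.13 at its brightest probe set and -0.08 ± 0.18 at its other one. A further list of 10 genes with apolipoprotein names or functions also holds the receptor gene Apobr, the mitochondrial Apoo and Apool, and Apold1, which is known from endothelium. Of these 10 genes 1, Apold1, had an unadjusted limma p under 0.05, against 9.36% of all genes. Apold1 was at 0.70 ± 0.19 (limma adjusted p = 0.352), at a mean signal of 4.19, close to the array medians. The list median was 0.03.

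In the lists for HDL formation and particle assembly together, 2 of 22 genes had an unadjusted p under 0.05, or 9.09%, close to the 9.36% of all genes. Abca1, the transporter that loads lipid onto apolipoprotein A-I, had 9.86, 10.01, 10.24 and 10.21 in MTAP+/+ and 10.25, 10.81, 10.43 and 10.52 in MTAP+/- livers. Its groups did not overlap at this probe set and the difference was 0.42 ± 0.14 (SE; limma adjusted p = 0.423), while its 2 dimmer probe sets were at 0.02 and 0.03. The other 7 measured HDL genes had unadjusted p above 0.05, with Bmp1 at -0.25 and Abcg1 at 0.39 (0.08 at its dimmer probe set). In the list for assembly and secretion of apolipoprotein B particles, 1 of 14 genes, Tfg of the secretory pathway, had an unadjusted p under 0.05 (-0.30 ± 0.10, adjusted p = 0.440). Mttp, which loads lipid onto apolipoprotein B, was at -0.22 ± 0.15.

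Uptake and lipolysis genes were likewise uncalled. Cd36, a fatty acid and lipoprotein receptor, had 4.85, 5.36, 5.53 and 5.37 in MTAP+/+ and 5.72, 6.11, 5.51 and 6.16 in MTAP+/- livers (0.60 ± 0.18, SE; limma adjusted p = 0.396). Its other 2 probe sets were at 0.61 and 0.57. Lrpap1, a chaperone of lipoprotein receptors, was at -0.35 ± 0.15. Of 9 measured receptor genes 2, Cd36 and Lrpap1, had an unadjusted limma p under 0.05, against 9.36% of all genes. Lipoprotein lipase itself, Lpl, was at 0.92 ± 0.43 with overlapping groups, and 0 of 7 lipolysis genes had an unadjusted p under 0.05.

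Transcription factors known to act on apolipoprotein genes had 5 of 20 measured members at an unadjusted p under 0.05, 4 higher and 1 lower, and 0 past the threshold. That is 25.0% of a list of 20, against 9.36% of all genes. Without MTAP+/- replicate 2 there were 5, against 12.5% of all genes, with Foxa2 and Nr0b2 in place of Rora and Creb3l3. Without MTAP+/+ replicate 4 there were the same 5 as with all livers, against 11.7% of all genes. Ppara, the fatty acid receptor, had 9.04, 9.70, 9.33 and 9.26 in MTAP+/+ and 10.18, 9.79, 10.14 and 9.53 in MTAP+/- livers (0.58 ± 0.17, SE; limma adjusted p = 0.396). Its 2 other probe sets were at 0.65 and 0.41. Egr1 was at 1.01 ± 0.32, Rora at 0.35 ± 0.14 and Nr5a2 at 0.41 ± 0.17, while the 9 probe sets of Rora ranged from -0.30 to 0.51. Creb3l3, a liver factor known to activate Apoa4, was the lower of the 5, with 10.36, 10.66, 10.35 and 10.30 in MTAP+/+ and 10.06, 10.06, 10.37 and 10.06 in MTAP+/- livers. MTAP+/- replicate 3 was the only liver of its group inside the MTAP+/+ range, and the difference was -0.28 ± 0.12 (limma adjusted p = 0.557). The part of Creb3l3 in the Apoa4 values was not tested. Hnf4a, a general driver of apolipoprotein transcription, was at -0.05 ± 0.11. Nr5a2, Creb3l3, Hnf4a, Foxa2 and Nr0b2 were named after their values were seen.

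Genes beside the chromosome 9 cluster differed little on average. Of 8 such genes 0 had an unadjusted limma p under 0.05, with differences from -0.17 to 0.22. Beside the chromosome 7 cluster 2 of 8 did, against 9.36% of all genes. They were Relb (0.48 ± 0.15, SE), at a mean signal of 4.01 close to the array medians, and Cblc (-0.25 ± 0.10), with adjusted p of 0.403 and 0.507 and groups that did not overlap.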

How the data were processed

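Liver RNA of 4 MTAP+/- and 4 MTAP+/+ mice was hybridised to 1 array each. The deposited table held log2 signals for 45101 probe sets, made by the authors with RMA, per the submitters' processing notes; its version and settings are not stated there, and the values themselves showed the log2 scale. The 64 control probe sets were left out, and values were used as deposited. Per the platform annotation 34945 probe sets had 1 gene symbol, 932 several and 9160 none; 34741 matched a RefSeq gene by ID (GRCm38.p6), used for names and gene order.

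All 45037 probe sets were fitted in R 4.3.3 by the lmFit and eBayes functions of limma 3.58.1, genotype being the only factor and tests two-sided. The eBayes step draws the variance of each probe set toward a value shared by all. The SEs, 95% intervals and limma p-values given are those after this step. For Apoa2, with a within-genotype SD of 0.04, the SE was 0.082. Adjusted p-values are Benjamini-Hochberg values over all probe sets, called under 0.05. Single values were compared with exact permutation tests over the 70 assignments. List genes were represented by their brightest probe set. Simulated data had 45037 probe sets, 200 of them changed. The fit recovered 22.4% of changes of 0.5 log2 units, 78% of 1 unit, 95.6% of 1.5 units and 98% of 2 units. Of its calls 6.13% were at unchanged probe sets. The 200 were drawn at random with normal spread at each one's own SD, whose median over all probe sets was 0.17. The spread was drawn independently for each probe set and array, without the variation that probe sets share in the real arrays. How far these shares hold for the real arrays was not tested. These shares do not apply to Apoa4 (SD 0.59 and 0.63) or Apob (0.34 and 0.64), which spread more.

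Named were all members, the genes of each list with the smallest p (up to 3, or any in lists of up to 8), and for each member the genes most like it. Alternatives were another normalisation, centring, eBayes settings, a filter on dim probe sets, array weights, 1 probe set per gene, probe set kinds, the replicate number as a block, another threshold and each liver left out. The members, lists and tests were chosen with earlier results of these data known. The number of arrays limits the precision, and no detection calls were used.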

Additional observations from a re-analysis of the deposited data

Results flagged for a closer look

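In 2 of the 32 groups of 4 livers, 1 liver lay far from the other 3 by Dixon's criterion, which chance meets in about 1 of 20 groups. At the Apoa4 probe set 1417761_at, MTAP+/+ replicate 4 (8.97) lay below the other MTAP+/+ livers (10.45 to 10.74). At Apoc2, MTAP+/+ replicate 2 (10.83) lay below the others (11.30 to 11.33).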

How the results depend on the processing

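The count of apolipoprotein probe sets past the threshold was 0 under 16 of 17 alternatives, and 0 to 1 when a single liver was left out, the 1 being Apoa4 1417761_at without MTAP+/+ replicate 4. Both Apoa4 probe sets kept a negative difference under all 16 alternatives that tested them, from -1.64 to -1.05 at 1417761_at, with adjusted p from 0.0257 to 0.754, and from -1.51 to -0.99 at 1436504_x_at. The count over all probe sets, 16 in the reported fit, was 9 without dim probe sets, 9 with 1 probe set per gene, 25 with the replicate block and 5 to 21 with a single liver left out. With the replicate block Apoa4 had adjusted p of 0.184 and 0.214 and no apolipoprotein passed. The numbers were not taken as pairs, because the labels do not state that same numbers pair animals. Deviations of same-numbered livers had correlations of -0.07, 0.22, 0.0049 and 0.23. Of 4 MTAP+/- livers 2 correlated best with their own number, which does not settle whether the numbers are pairs.

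Differences near 0 changed sign, and the cause was not tested. Apoc1 was at -0.044 with renewed quantile normalisation, -0.0039 with centring and -0.014 with array weights, and Apob 1457554_at at -0.048 with array weights. With single livers left out the ranges crossed 0 for Apoa1 (-0.0046 to 0.054 at 1419232_a_at, -0.0062 to 0.044 at 1419233_x_at, -0.00021 to 0.053 at 1455201_x_at), Apoa2 (-0.030 to 0.0056), Apob 1457554_at (-0.20 to 0.42), Apoc1 (-0.041 to 0.064) and Apoh 1447719_at (-0.20 to 0.017). The 9 related lists had 0 genes past the threshold under all 17 alternatives. Without detection calls, low signals are not shown to be expression.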
